A study of Mus musculus with 24 samples.

Results

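Liver RNA of female mice lacking both liver X receptors was compared with liver RNA of wild-type females, without any toxin. The comparison rests on the 12 samples labelled as controls, 6 of each genotype, out of 24 arrays in the series. The KO mice lack LXRα and LXRβ, the WT mice carry both, and the mice of each genotype had the sv129/C57 background. They were 8 weeks old and received water for 1 month. The other 12 mice, of the same genotypes, background and age, received the mycotoxin fumonisin B1 (FB1) at 10 mg per kg body weight per day for 1 month. They were used to ask whether the same genotype differences were present in other animals. They also entered the fit behind every call, through the spread of each gene and the choice of probes. The sources used here state neither how the receptors were deleted nor whether WT and KO mice were littermates. Each sample is 1 mouse on 1 array, so p-values measure the spread between animals handled in 1 experiment.

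LXRα, encoded by Nr1h3, and LXRβ, encoded by Nr1h2, are nuclear receptors that sense oxysterols and bind DNA together with a retinoid X receptor. In liver they are known to raise transcription of genes for sterol efflux and for fatty acid synthesis, the latter partly through the transcription factor SREBP-1c, the product of Srebf1. In macrophages they are known for cholesterol export and for maintaining the identity of Kupffer cells, the resident macrophages of the liver.

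Values are log2 signals relative to the 75th percentile of each array, differences are KO control minus WT control on that log2 scale, and values after ± are standard errors from a spread shared by all 24 arrays. A gene was called where limma gave an adjusted p under 0.05. On the 12 arrays 60.1% to 64.5% of spots were well above background. The arrays lay on 3 slides, each with 2 of every group. Pairs of WT control arrays correlated at 0.984 to 0.992 over genes, pairs of KO control arrays at 0.991 to 0.994, and mixed pairs at 0.972 to 0.982. The first principal component, with 46.2% of the variance, separated the genotypes, while WT control replicates 5 and 4 lay apart from the other WT controls on the next components. The median SD of a gene was 0.21 in WT controls and 0.17 in KO controls. Of 15 hepatocyte markers 0 were called by limma. The summed signal of these markers, in multiples of the 75th percentile, spanned 5085 to 5533 in WT and 4839 to 5766 in KO.

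The deleted genes were examined first. The Nr1h3 probe used, at chr2:91024250-91024309 (mm9), had a lowest, median and highest value of 4.76, 5.0 and 5.06 in WT controls and of -5.13, -4.41 and -3.98 in KO controls. The groups were far apart, and the difference was -9.45 ± 0.29 (699-fold, limma adjusted p = 4.6e-17). The Nr1h2 probe at chr7:51805013-51805072 (mm9) ran from 4.07 over 4.15 to 4.34 in WT and from 0.34 over 0.53 to 0.72 in KO (-3.66 ± 0.08, adjusted p = 2.17e-20). Its signal in KO controls was thus lower by 12.6-fold but still well above background on all 6 arrays. A different Nr1h2 probe, at chr7:51807934-51808069 (mm9), gave 0.20 ± 0.09 and was not called (adjusted p = 0.152). The sources used here do not state the deleted stretch of either gene, so a probe may lie outside it and then says nothing about the deletion. The sequence of that probe is shown because it marks a stretch of Nr1h2 whose signal was not called lower in KO livers, printed from the array files in lower case.
Nr1h2 probe: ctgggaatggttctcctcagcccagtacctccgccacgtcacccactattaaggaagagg

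Loss of the receptors was accompanied by differences in many genes. Of 22068 genes tested, 3354 were called (15.2%), 1589 higher in KO (7.20%) and 1765 lower (8.00%). The differences were mostly modest. The median fold was 1.5 among the higher genes and 1.60 among the lower, 1825 genes (8.27%) differed by at least 1.5-fold, and 306 by at least 4-fold, of which 98 were higher and 208 lower. These counts use fitted values in which dim arrays were not raised to the detection floor. Some genes therefore count at a fold that was not measured, because 1 group lay below background. For 1744 of the 22040 genes with a value on all 12 arrays (7.91%) the 2 groups did not overlap, 794 with KO above WT (3.60%) and 950 with KO below WT (4.31%). Within slides 1, 2 and 3, 3345, 3341 and 3346 of the 3354 called genes had the direction of the fit, and 3324 had it in all 3 slides, though the calls were made on the same arrays. Without WT control replicates 4 and 5 together, 2984 genes were called. With the spread taken from the 12 control arrays alone, 2873 genes were called.

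**Figure D1:**
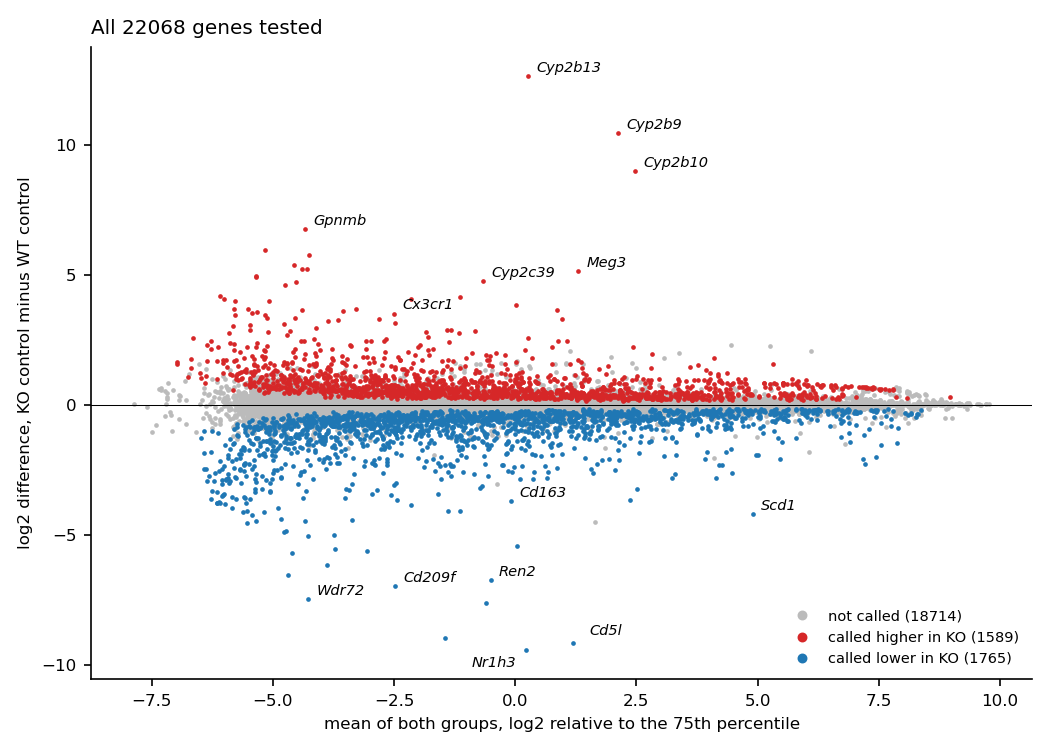
Log2 difference between KO control and WT control livers (vertical axis) against the mean of both groups (horizontal axis, log2 relative to the 75th percentile) for each of the 22068 genes tested. The 1589 red points were called higher and the 1765 blue points lower; Cyp2b13, Cyp2b9 and Cyp2b10 lie at the top and Nr1h3 and Cd5l at the bottom.

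The rises of greatest size were in the Cyp2b family of cytochrome P450 enzymes, which oxidise drugs and steroids and are known targets of the xenobiotic receptor CAR. Cyp2b13 spanned -7.92 to -3.40 in WT controls, with a median of -6.41, and 6.30 to 6.84 in KO controls, with a median of 6.60. It went from well above background on 2 of 6 WT arrays to bright on all KO arrays, a difference of 12.64 ± 0.54 (adjusted p = 2.45e-14), or 11.80 with dim arrays raised to the detection floor. Cyp2b9 ran from -4.91 over -3.25 to -1.31 in WT and from 7.19 over 7.30 to 7.55 in KO (10.44 ± 0.43, 1391-fold, adjusted p = 1.03e-14). Cyp2b10 ran from -3.17 over -2.13 to -0.41 in WT and from 6.82 over 6.92 to 7.25 in KO (8.99 ± 0.35, 508-fold, adjusted p = 4.03e-15). For Cyp2b9 and Cyp2b10, well above background on all 12 arrays, the WT arrays spread more widely than the KO arrays, with SDs of 1.40 and 1.06 against 0.13 and 0.16. Cyp2c39, a P450 of another subfamily, ran from -3.55 over -2.98 to -2.69 in WT and from 1.65 over 1.70 to 1.81 in KO (4.74 ± 0.18, adjusted p = 4.03e-15).

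Since the 3 Cyp2b genes moved together, the 250 bases before their start sites are shown, 5′ to 3′ on the strand of the gene, from RefSeq on build GRCm38.p6. Capitals mark the 2 positions at which Cyp2b9 and Cyp2b13 differ from each other. The windows lie at chr7:26173159-26173408 for Cyp2b9, chr7:26061245-26061494 for Cyp2b13 and chr7:25897408-25897657 for Cyp2b10, each on the plus strand.
Cyp2b9: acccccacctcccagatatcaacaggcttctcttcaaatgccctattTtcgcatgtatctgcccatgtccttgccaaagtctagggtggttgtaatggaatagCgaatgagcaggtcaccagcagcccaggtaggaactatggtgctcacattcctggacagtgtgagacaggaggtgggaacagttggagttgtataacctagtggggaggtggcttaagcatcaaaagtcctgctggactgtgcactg
Cyp2b13: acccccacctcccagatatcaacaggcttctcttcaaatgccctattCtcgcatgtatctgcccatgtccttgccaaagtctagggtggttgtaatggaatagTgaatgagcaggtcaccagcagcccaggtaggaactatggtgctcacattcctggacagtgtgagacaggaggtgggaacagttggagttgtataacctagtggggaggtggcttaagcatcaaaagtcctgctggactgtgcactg
Cyp2b10: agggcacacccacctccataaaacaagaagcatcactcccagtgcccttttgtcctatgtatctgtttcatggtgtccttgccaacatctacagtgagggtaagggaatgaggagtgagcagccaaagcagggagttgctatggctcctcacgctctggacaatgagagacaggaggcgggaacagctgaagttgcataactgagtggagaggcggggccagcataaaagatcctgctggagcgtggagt
Cyp2b9 and Cyp2b13 were identical at 248 of 250 positions (99.2%), whereas each matched Cyp2b10 at 182 of 260 positions of a gapped alignment (70.0%). The genes themselves are close copies, so a probe may read more than its own gene.

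Other genes of oxidative drug metabolism went in opposite directions (Cyp2c55, Cyp3a44, Nr1i3, Cyp3a25 and Cyp3a11 were chosen after their values were seen). Of 35 phase 1 genes tested, 7 were higher and 8 lower, against 7.20% and 8.00% of all genes, with a median of 0.00. The lower genes included Cyp2c55 (-2.60 ± 0.37, adjusted p = 1.81e-05), Cyp3a44 (-2.09 ± 0.37, adjusted p = 0.000286), Cyp2a4 (-1.47 ± 0.17, adjusted p = 7.75e-07) and the receptor CAR itself, Nr1i3 (-0.46 ± 0.16, adjusted p = 0.0467, lost on leaving out any of 10 single arrays). Cyp3a25 was higher by 0.62 ± 0.16 (adjusted p = 0.0112), and Cyp3a11, the main CYP3A enzyme of mouse liver, was at 0.12 ± 0.12 and not called (adjusted p = 0.588). Cyp2a4, a steroid hydroxylase, ran from 8.25 over 8.69 to 8.84 in WT and from 6.83 over 7.13 to 7.60 in KO, so that the groups did not overlap. Of 34 conjugation genes 0 were higher and 4 lower (11.8%, against 15.2% called among all genes), with Sult1e1, the oestrogen sulfotransferase, at -2.61 ± 0.72 (adjusted p = 0.0143), Sult5a1 at -1.05 ± 0.24 (adjusted p = 0.00358) and Gstt3, a glutathione transferase, at -0.82 ± 0.19 (adjusted p = 0.0031). Among 27 genes known to be female-biased in mouse liver, Cyp2b9 and Cyp2b13 were higher and 8 were lower (29.6%, against 8.00% of all genes), with a median of -0.52. Cyp2c69 was one of the lower genes, from 7.59 over 8.20 to 8.71 in WT and from 5.36 over 6.13 to 6.94 in KO (-2.11 ± 0.30, adjusted p = 1.53e-05). Of 25 male-biased genes 2 were higher and 4 lower, with the complement regulator Susd4 at 3.29 ± 0.48 (adjusted p = 2.52e-05).

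**Figure D2:**
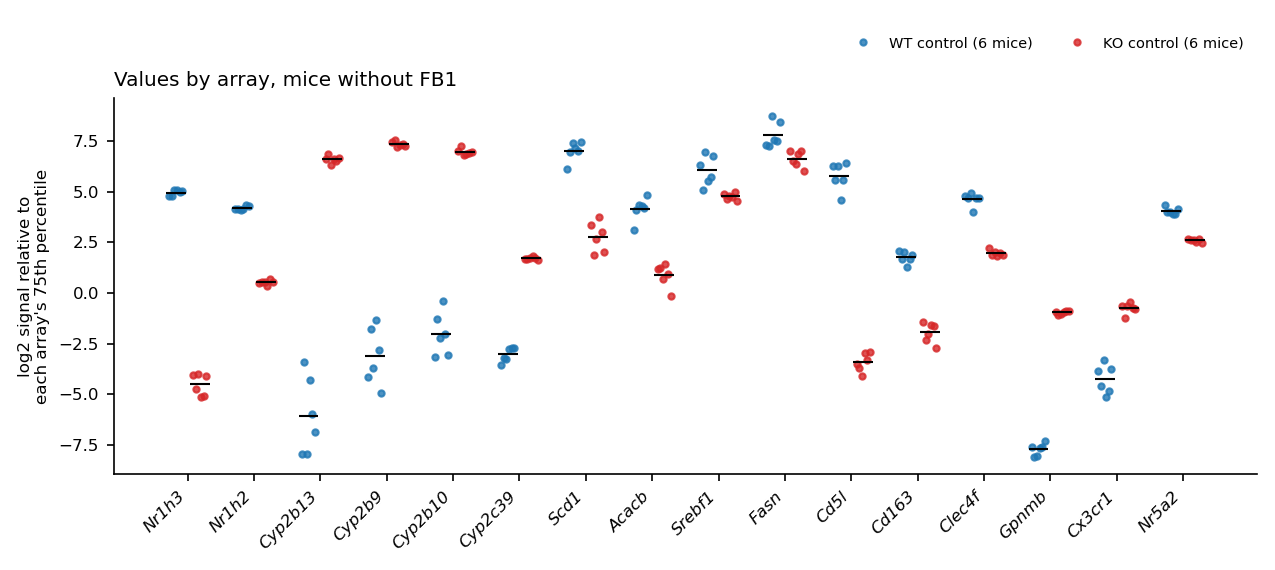
Log2 signal relative to each array's 75th percentile (vertical axis) for 16 genes (horizontal axis), with 1 point per control mouse and a black bar at the mean of each group of 6. Cyp2b9 and Cyp2b10 are spread in WT controls and tight in KO controls, and the WT and KO points overlap in none of the 16 genes.

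Lipogenic genes were lower in KO livers as a group. Of 33 tested genes 17 were lower and 0 higher, against 8.00% lower among all genes, and the median difference was -0.58 against 0.01 over all genes. Within slides 1, 2 and 3 the median was -0.37, -0.82 and -0.69. Scd1, the stearoyl-CoA desaturase that makes oleate and a known direct LXR target, ran from 6.11 over 7.08 to 7.44 in WT and from 1.87 over 2.85 to 3.75 in KO (-4.22 ± 0.27, 18.7-fold, adjusted p = 3.23e-11). Acacb, the acetyl-CoA carboxylase whose malonyl-CoA restrains fatty acid oxidation, ran from 3.09 over 4.25 to 4.82 in WT and from -0.13 over 1.04 to 1.42 in KO (-3.26 ± 0.28, 9.59-fold, adjusted p = 7.15e-09). Neither gene had any overlap between the groups.

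The transcription factor Srebf1 was lower by less. It ran from 5.10 over 6.04 to 6.96 in WT and from 4.54 over 4.76 to 4.99 in KO, so that the lowest WT array lay just above the highest KO array (-1.30 ± 0.23, 2.46-fold, adjusted p = 0.000233). Fatty acid synthase, Fasn, ran from 7.23 over 7.53 to 8.75 in WT and from 6.04 over 6.67 to 6.99 in KO (-1.17 ± 0.23, 2.25-fold, adjusted p = 0.00102). Thrsp, a lipogenic regulator, was lower by 1.92 ± 0.34 on the log2 scale (adjusted p = 0.000261). Scd2 was at -1.62 ± 0.24 (adjusted p = 2.91e-05), the elongase Elovl6 at -1.39 ± 0.24 (adjusted p = 0.000218) and the NADPH-supplying malic enzyme Me1 at -1.28 ± 0.16 (adjusted p = 3.86e-06). Acss2, Pklr, G6pdx, Gpam, Acly, Pgd and Tkt were also lower, by 0.38 to 1.1. They cover acetyl-CoA supply, glycolysis, the pentose phosphate pathway and the first step of glycerolipid assembly. The call of Acly was lost without WT control replicate 3 (adjusted p = 0.0536). That of Tkt was lost in 1 alternative run of the limma fit (adjusted p = 0.117).

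Other lipogenic genes were not called. Acaca, the carboxylase of cytosolic fatty acid synthesis, was at -0.35 ± 0.13 (adjusted p = 0.0704), and Mlxipl, the carbohydrate-responsive transcription factor ChREBP, at -0.25 ± 0.12 (adjusted p = 0.167). The triglyceride-forming enzymes Dgat1 and Dgat2 gave 0.15 ± 0.08 and -0.11 ± 0.11. The calls of Elovl5 (-0.54 ± 0.18, adjusted p = 0.0389) and Fads1 (-0.28 ± 0.09, adjusted p = 0.0396) were each lost on leaving out any of 8 single arrays.

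Sites for general promoter factors were searched in the 250 bases before the start of 12859 tested genes with a RefSeq promoter. CCAAT, the box bound by NF-Y, stood on either strand in 10 of 14 lipogenic genes called lower (71.4%) and in 39.6% of all tested genes. It stood in 16 of 27 promoters of the whole lipogenic list (59.3%) and in 41.4% of all genes called lower. The sterol element, TCAC and CCAC separated by 1 base, stood in 0 of the 14 (1.24% of all tested genes) and the E-box CACGTG in 1 of the 14 (7.14%, against 9.05%), both strands searched. In the whole lipogenic list the sterol element stood in 1 of 27 (3.70%) and the E-box in 6 of 27 (22.2%). The windows of Fasn, at chr11:120824548-120824797, and Thrsp, at chr7:97417551-97417800, each on the minus strand of GRCm38.p6, are shown with CCAAT or its reverse complement in capitals, because they hold several such boxes close to the start.
Fasn: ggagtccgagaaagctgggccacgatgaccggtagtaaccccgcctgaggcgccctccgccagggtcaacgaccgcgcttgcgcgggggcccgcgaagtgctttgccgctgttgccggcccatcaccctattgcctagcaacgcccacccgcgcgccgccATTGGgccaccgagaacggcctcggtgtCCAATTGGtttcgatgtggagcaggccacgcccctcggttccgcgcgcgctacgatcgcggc
Thrsp: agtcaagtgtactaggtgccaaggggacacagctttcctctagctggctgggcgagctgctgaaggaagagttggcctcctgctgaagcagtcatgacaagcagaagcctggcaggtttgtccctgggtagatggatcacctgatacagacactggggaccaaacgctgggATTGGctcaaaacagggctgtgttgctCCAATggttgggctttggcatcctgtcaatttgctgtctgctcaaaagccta
The cholesterol list, whose members mostly were not called lower, held the box in 20 of 22 promoters (90.9%).

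**Figure D3:**
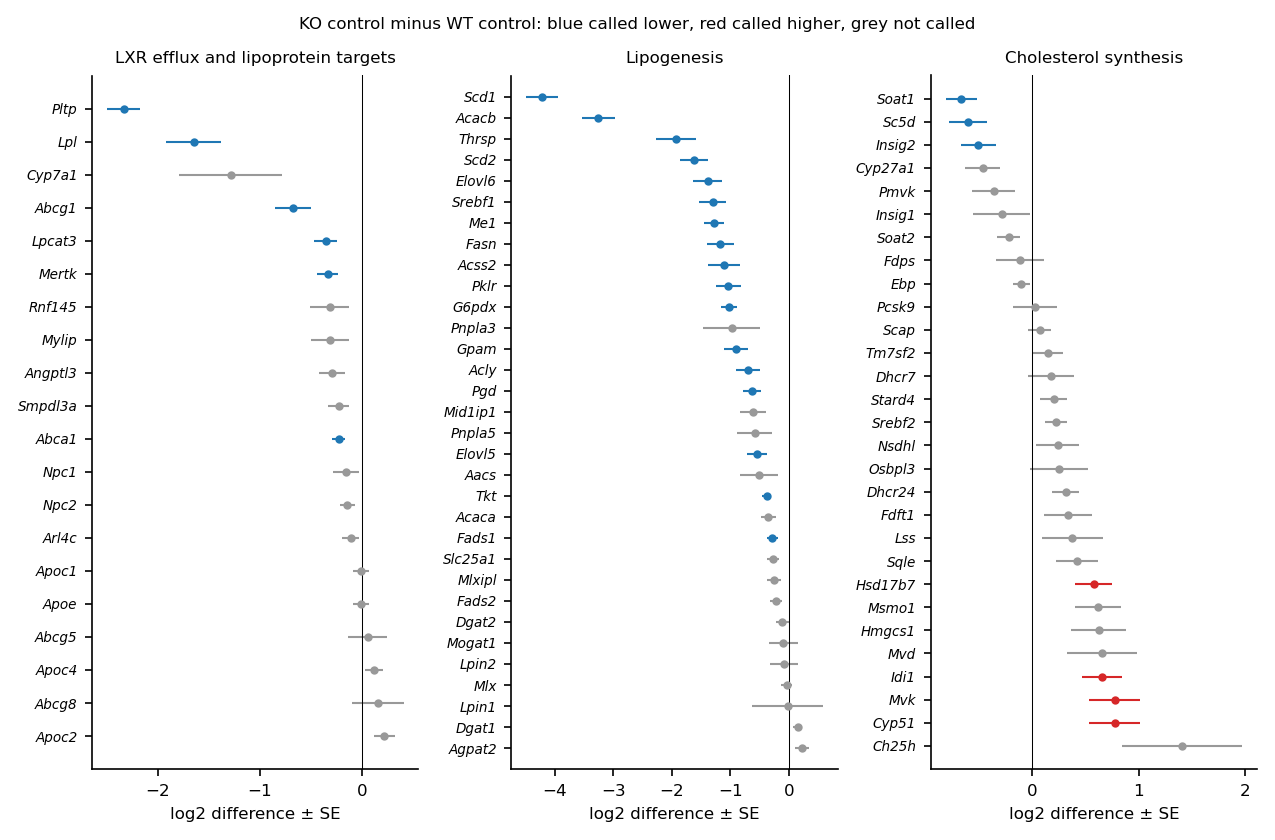
Log2 difference between KO control and WT control (horizontal axis, bars are standard errors) for genes of 3 lists of lipid genes; Nr1h3, Nr1h2 and Cd5l of the leftmost list lie beyond its axis and are left out, as are 3 genes of the other lists that were not called. Of the lipogenic genes 17 are blue (called lower) and 0 red, and in the cholesterol list 4 are red (called higher) and 3 blue.

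Besides Nr1h3 and Nr1h2 the target list held 21 tested genes, of which 7 were lower and 0 higher, against 8.00% lower among all genes. Abca1, the main cholesterol exporter, ran from 2.72 over 2.87 to 3.01 in WT and from 2.56 over 2.66 to 2.76 in KO, with overlap between the groups (-0.23 ± 0.06, 1.17-fold, adjusted p = 0.0167). The call of Abca1 was lost in 1 alternative run of the limma fit (adjusted p = 0.0901). Abcg1 was lower by 0.67 ± 0.18 (adjusted p = 0.0104). Abcg5 and Abcg8, which together secrete sterol into bile, were at 0.06 ± 0.19 (adjusted p = 0.902) and 0.15 ± 0.26 (adjusted p = 0.768). Mylip, a ubiquitin ligase induced by LXR, was at -0.31 ± 0.19 (adjusted p = 0.302), and Apoe at -0.01 ± 0.08 (adjusted p = 0.967).

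Of these 21 genes Cd5l, a macrophage gene described below, had the largest difference (-9.16 ± 0.28). Other called members act in lipoprotein remodelling. Pltp, the phospholipid transfer protein, ran from 0.59 over 0.70 to 1.77 in WT and from -1.57 over -1.48 to -1.25 in KO (-2.34 ± 0.16, 5.05-fold, adjusted p = 1.85e-10). Lipoprotein lipase, Lpl, ran from 0.97 over 2.14 to 2.63 in WT and from -0.08 over 0.37 to 0.94 in KO (-1.65 ± 0.27, 3.14-fold, adjusted p = 9.78e-05). Lpcat3, which puts polyunsaturated chains into phospholipids, was at -0.35 ± 0.11 (adjusted p = 0.0369, lost on leaving out any of 9 single arrays). Mertk, a receptor for the uptake of dying cells, was at -0.34 ± 0.10 (adjusted p = 0.0217, lost without WT control replicate 5 or KO control replicate 3, at 0.0632 and 0.0532). Abcg1, Lpl, Pltp and Mertk are also known from macrophages, and the summed signal of the Kupffer cell marker list was lower in KO, as given below. Its part in these differences was not tested.

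Of 21 genes for retinoid X receptors and coregulators 0 were called by limma (1 had an unadjusted p under 0.05), with differences from -0.18 to 0.37.

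Cholesterol synthesis genes were divided. Of 31 tested genes 4 were higher (Idi1, Mvk, Cyp51 and Hsd17b7, by 0.58 to 0.78) and 3 lower, with a median of 0.22. Those shares were 12.9% and 9.68%, against 7.20% and 8.00% of all genes. The lower genes were Soat1, which esterifies cholesterol (-0.66 ± 0.15, adjusted p = 0.00309), the desaturase Sc5d (-0.60 ± 0.18, adjusted p = 0.0245) and Insig2, which retains SREBP in the endoplasmic reticulum (-0.50 ± 0.16, adjusted p = 0.0383). The calls of Sc5d and Insig2 were lost on leaving out any of 3 and 7 single arrays. The count of higher genes rested on single arrays, falling to 0 without KO control replicate 1 or KO control replicate 5, to 1 without KO control replicate 4 or WT control replicate 4 and to 2 without WT control replicate 2 or 5, and reaching 9 without KO control replicate 6.

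The called bile acid genes with the largest differences were a nuclear receptor and a muricholic acid enzyme. Nr5a2, the receptor LRH-1, which acts on bile acid synthesis genes, ran from 3.89 over 3.99 to 4.33 in WT and from 2.48 over 2.63 to 2.66 in KO (-1.44 ± 0.07, 2.71-fold, adjusted p = 9.28e-13). Cyp2c70, which makes the muricholic acids of mice, ran from 7.39 over 7.59 to 7.93 in WT and from 5.97 over 6.15 to 6.57 in KO (-1.43 ± 0.12, 2.69-fold, adjusted p = 6.98e-09). Cyp7a1, the rate-limiting enzyme and a known LXR target of mice, ran from 2.62 over 3.44 to 4.68 in WT and from -0.35 over 2.60 to 3.10 in KO, where replicate 3 was far below the others, and was not called (-1.29 ± 0.50, adjusted p = 0.0913). The efflux pump Abcc4 was lower by 1.41 ± 0.23 (adjusted p = 0.000103), and Amacr, a racemase of side-chain shortening, was higher by 0.84 ± 0.18 (adjusted p = 0.0017). In all 6 of 29 genes were lower and 2 higher (20.7% and 6.90%, against 8.00% and 7.20% of all genes), with a median of -0.04. The calls of Abcb11, the bile salt export pump (-0.30 ± 0.10, adjusted p = 0.0371), Cyp39a1 (-0.49 ± 0.15, adjusted p = 0.0317) and Klb, the coreceptor for the hormone FGF15 (-0.32 ± 0.10, adjusted p = 0.0279), were lost on leaving out any of 8, 6 and 4 single arrays. Without WT control replicate 5 the lower genes numbered 3.

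Other metabolic lists are set beside the 15.2% called among all genes. In them 5 of 35 genes of fatty acid oxidation and PPARα were higher and 1 lower, with Bdh1, a ketone body enzyme, at 0.44 ± 0.10 (adjusted p = 0.00337) and the fatty acid uptake receptor Cd36 at -0.96 ± 0.21 (adjusted p = 0.00276). Of 25 apolipoprotein and lipoprotein genes 2 were higher and 0 lower. Apoa4 was one of these, at 1.55 ± 0.36 (adjusted p = 0.00371). Of 31 sphingolipid genes 2 were higher and 4 lower. Sphk1, which makes sphingosine 1-phosphate, was higher by 1.23 ± 0.19 (adjusted p = 4.37e-05), Asah1, the lysosomal ceramidase, by 0.56 ± 0.09 (adjusted p = 8.06e-05), and the ceramide synthase Cers6 was lower by 0.40 ± 0.10 (adjusted p = 0.0089). The call of Cers6 was lost in 1 alternative run of the limma fit (adjusted p = 0.148). Of 26 genes of glucose metabolism 0 were higher and 2 lower, Pklr and Ppp1r3g, a glycogen-targeting phosphatase subunit (-3.21 ± 0.72, adjusted p = 0.00283). The clock list (21 genes) held 0 calls by limma, with 1 at an unadjusted p under 0.05.

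Markers of Kupffer cells were lower in KO livers. Of 20 tested markers 14 were lower and 0 higher, against 8.00% lower among all genes, with a median of -0.96. For 9 of the 20 all KO values lay below all WT values, against 4.31% of the 22040 genes compared in this way. Within slides 1, 2 and 3 the median was -0.92, -0.66 and -1.35. Cd5l, a secreted scavenger protein of macrophages and a known LXR target, ran from 4.60 over 5.90 to 6.39 in WT and from -4.11 over -3.39 to -2.89 in KO (-9.16 ± 0.28, 574-fold, adjusted p = 3.09e-17). The haemoglobin scavenger receptor Cd163 ran from 1.30 over 1.79 to 2.08 in WT and from -2.73 over -1.82 to -1.43 in KO (-3.72 ± 0.30, 13.1-fold, adjusted p = 2.9e-09). Clec4f, a lectin confined to Kupffer cells in mouse, ran from 4.0 over 4.69 to 4.92 in WT and from 1.83 over 1.92 to 2.21 in KO (-2.66 ± 0.19, 6.33-fold, adjusted p = 2.72e-10). Each of these genes stayed well above background on all 6 KO arrays.

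Of the same list Vsig4, a complement receptor, was at -2.88 ± 0.29 (adjusted p = 8.77e-08), Timd4, which binds dying cells, at -2.38 ± 0.24 (adjusted p = 9.08e-08), and Folr2, a folate receptor, at -1.93 ± 0.19 (adjusted p = 4.77e-08). The pan-macrophage marker Adgre1 was at -1.1 ± 0.24 (adjusted p = 0.00223), Csf1r at -0.52 ± 0.18 (adjusted p = 0.0586) and Cd68 at 0.14 ± 0.16 (adjusted p = 0.657). Marco was called (-1.45 ± 0.46, adjusted p = 0.0343), but the call was lost on leaving out any of 7 single arrays. Vsig4, Timd4, Adgre1, Csf1r, Cd68 and Marco, and Trem2, Ccr2, Ms4a7, Fabp5, Cd44, Ccl4 and Tnf in the paragraphs that follow, were chosen after their values were seen. The summed signal of the list, in multiples of the 75th percentile, spanned 121 to 285 in WT controls, with a median of 239, and 69.5 to 98.5 in KO controls, with a median of 88.4. By the median over the list, relative to the WT control mean, WT control replicate 4 was at -0.79, within the KO range of -1.20 to -0.78. In RNA of whole liver, fewer cells of a type and less RNA of these genes per cell cannot be told apart.

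**Figure D4:**
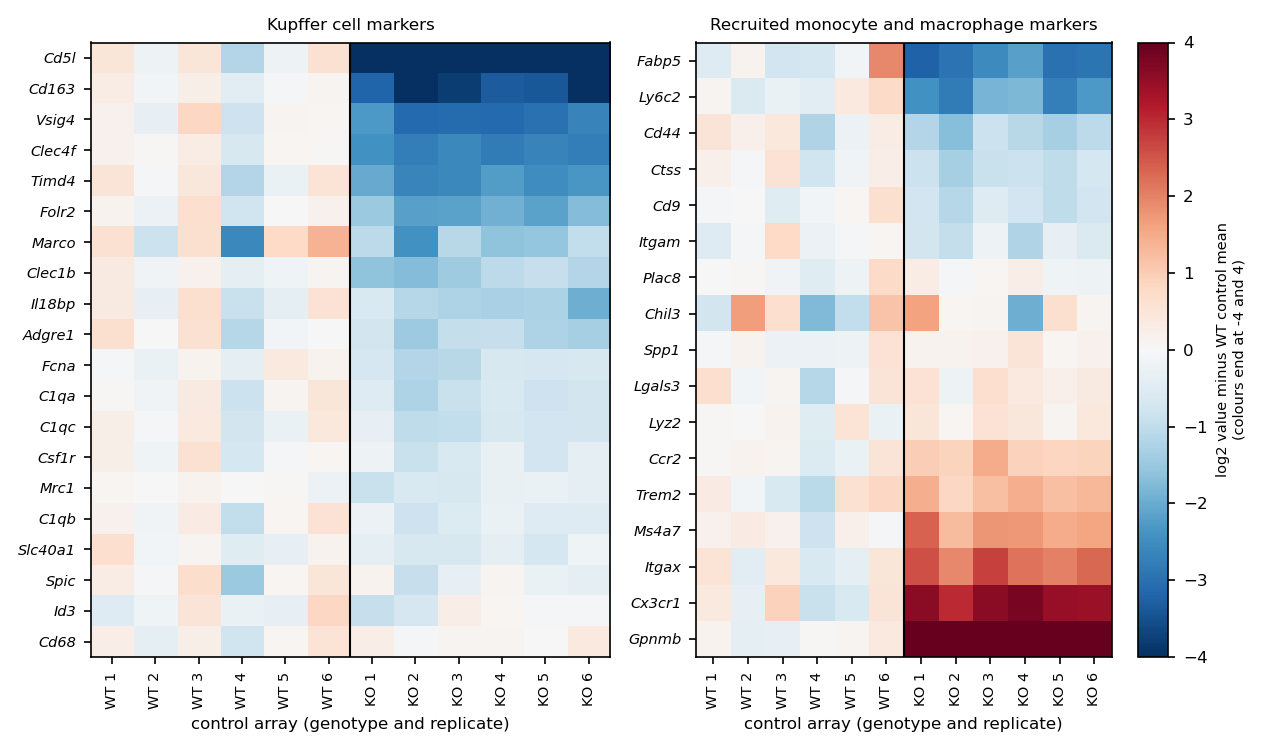
Each cell gives a gene's log2 value on 1 control array minus the WT control mean, for 20 Kupffer cell markers and 17 markers of recruited monocytes and macrophages (rows), in 6 WT and 6 KO control arrays (columns); colours end at -4 and 4. Most Kupffer rows are blue in all KO arrays, with Cd5l darkest and Cd68 pale, while the rows of the other panel run from blue (Fabp5, Ly6c2) to red (Gpnmb, Cx3cr1).

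Of 17 markers of recruited monocytes and macrophages 6 were higher and 6 lower, against 7.20% and 8.00% of all genes. Their summed signal, in which the brightest genes weigh most, was lower in KO without overlap, from 69.2 over 88.6 to 98.7 against 112 over 159 to 333 in WT. Gpnmb encodes a membrane glycoprotein found in macrophages loaded with lipid. No WT control array held it well above background, while on the 6 KO control arrays it ran from -1.09 over -0.93 to -0.87, so that it was at least 30.3-fold higher. The fold is a bound because the WT arrays hold no measured level. The fractalkine receptor Cx3cr1 ran from -5.13 over -4.22 to -3.32 in WT and from -1.25 over -0.69 to -0.45 in KO (3.5 ± 0.29, 11.3-fold, adjusted p = 3.74e-09). Itgax, the integrin CD11c, was higher by 2.29 ± 0.22 (adjusted p = 5.68e-08), Ms4a7 by 1.70 ± 0.24 (adjusted p = 1.41e-05), the lipid receptor Trem2 by 1.24 ± 0.29 (adjusted p = 0.00399) and the chemokine receptor Ccr2 by 1.01 ± 0.18 (adjusted p = 0.000341).

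Ly6c2, which marks classical monocytes, ran from 4.79 over 5.29 to 6.13 in WT and from 2.56 over 3.01 to 3.57 in KO (-2.32 ± 0.26, 5.0-fold, adjusted p = 6.6e-07). Fabp5, a fatty acid binding protein, was at -2.81 ± 0.35 (adjusted p = 2.12e-06), Cd44 at -1.20 ± 0.23 (adjusted p = 0.000628) and the lysosomal protease Ctss at -0.94 ± 0.17 (adjusted p = 0.000247). The call of Cd44 was lost in 1 alternative run of the limma fit (adjusted p = 0.189).

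Chemokines and cytokines went both ways. Of 24 chemokine and cytokine genes 7 were higher and 3 lower (29.2% and 12.5%, against 7.20% and 8.00% of all genes). Ccl3 stood above background in none of the 6 WT controls and was at least 3.78-fold higher on the 6 KO arrays. Ccl2, which recruits monocytes, was higher by 1.98 ± 0.44 (adjusted p = 0.00257), with overlap between the groups, Ccl4 by 2.15 ± 0.48 (adjusted p = 0.00294) and Tnf by 0.69 ± 0.18 (adjusted p = 0.00938). Ccl24, an eosinophil chemokine made by resident macrophages, ran from -0.09 over 0.91 to 1.53 in WT and from -2.65 over -2.27 to -1.94 in KO (-3.14 ± 0.22, 8.81-fold, adjusted p = 1.97e-10). Ccl6 was lower by 0.86 ± 0.15 (adjusted p = 0.000191).

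Mmp12, the macrophage elastase, was well above background on 1 of 6 WT arrays and on all KO arrays (3.08 ± 0.38, or 2.44 when dim arrays are set to the floor, adjusted p = 2.2e-06), as was Mmp13, a collagenase (4.70 ± 0.55, or 3.57 at the floor, adjusted p = 1.02e-06). In the matrix list 3 of 35 genes were higher and 0 lower, a share near the 7.20% higher among all genes. Timp1, the inhibitor of these enzymes, was at 0.49 ± 0.11 (adjusted p = 0.00321). Of 15 stellate cell markers 3 were higher and 1 lower, against 7.20% and 8.00% of all genes. Cygb was at 0.44 ± 0.13 (adjusted p = 0.0177) and Rgs5 at -0.69 ± 0.13 (adjusted p = 0.000437).

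The next 3 lists are set beside the 7.20% called higher and 8.00% called lower among all genes. In complement and coagulation 2 of 31 genes were higher (6.45%) and 5 lower (16.1%). Properdin, Cfp, was lower by 1.96 ± 0.14 (adjusted p = 2.94e-10), and C6, of the membrane attack complex, by 2.28 ± 0.27 (adjusted p = 1.61e-06), and the C1q chains C1qa and C1qc, which also stand in the Kupffer list, by 0.80 ± 0.17 and 0.74 ± 0.16. Of 29 acute phase genes 4 were higher (13.8%) and 3 lower (10.3%). Saa3, an amyloid A made largely outside hepatocytes, was higher by 2.21 ± 0.30 (adjusted p = 1.07e-05), while the pentraxins Crp and Apcs were lower by 1.74 ± 0.23 (adjusted p = 6.37e-06) and 1.95 ± 0.28 (adjusted p = 2.27e-05), and the endotoxin coreceptor Cd14 by 1.39 ± 0.18 (adjusted p = 5.74e-06). Of 30 interferon response genes 5 were lower (16.7%) and 1 higher (3.33%), with a median of -0.32. Irf7, a regulator of that response, was lower by 0.91 ± 0.24 (adjusted p = 0.0104) and Oas2, an antiviral synthetase, by 0.69 ± 0.17 (adjusted p = 0.00595). By slide, the median of the interferon list was -0.51, -0.094 and -0.56 on slides 1, 2 and 3.

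Markers of other blood and vessel cells are set beside the 15.2% called among all genes. Neutrophil markers had 3 lower of 12 and 0 higher, with Mpo at -2.21 ± 0.54 (adjusted p = 0.00641), T and NK cell markers 1 lower of 10, B and plasma cell markers 1 higher and 2 lower of 7, and sinusoidal endothelial markers 1 higher and 2 lower of 15. Of 10 cholangiocyte markers 0 were called by limma (2 at an unadjusted p under 0.05). The summed signal of neutrophil markers spanned 18.4 to 105 in WT and 27.6 to 155 in KO, and that of sinusoidal endothelial markers 72.9 to 96.7 and 54.4 to 80.8, so that each overlapped between the genotypes. Of 8 erythroid markers 1 was higher and 1 lower, with 5 at an unadjusted p under 0.05 and a median of 0.68. By slide the erythroid median was 0.52, 0.81 and 0.63, and the summed signal spanned 107 to 428 in WT and 244 to 366 in KO. The part of blood content in other differences was not tested.

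Stress and growth lists are likewise read against 15.2% called among all genes. Of 24 NRF2 targets 6 were lower and 0 higher. Haem oxygenase 1, Hmox1, ran from 1.71 over 3.71 to 4.43 in WT, where replicate 4 was far below the others, and from 1.24 over 1.57 to 2.04 in KO (-1.86 ± 0.30, 3.64-fold, adjusted p = 9.32e-05). It is also strongly expressed in Kupffer cells, whose markers were lower, and their part in this was not tested. Of 30 genes of the unfolded protein and integrated stress response 5 were lower and 1 higher. The asparagine synthetase Asns was lower by 1.59 ± 0.32 (adjusted p = 0.00102) and Edem1, of endoplasmic reticulum quality control, by 0.71 ± 0.11 (adjusted p = 6.12e-05), while the stress sensor Atf6 was higher by 0.57 ± 0.09 (adjusted p = 5.38e-05). Of 38 cell cycle genes 2 were higher and 1 lower, a share below that of all genes. The replication helicase genes Mcm3 and Mcm6 were higher by 1.15 ± 0.17 (adjusted p = 2.49e-05) and 1.54 ± 0.35 (adjusted p = 0.0033). The cell cycle median was -0.13, 0.86 and -0.0099 within slides 1, 2 and 3, so no direction held across slides.

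Several of the greatest differences were in genes of no list. Meg3, a maternally expressed long noncoding RNA, ran from -2.15 over -1.44 to -0.36 in WT and from 3.46 over 3.93 to 4.14 in KO (5.14 ± 0.36, 35.1-fold, adjusted p = 2.55e-10). Sntg1, a syntrophin of the membrane cytoskeleton, was at least 18.2-fold higher and H60b, a ligand of the killer cell receptor NKG2D, at least 7.99-fold higher. Nat8f5, of an acetyltransferase family, was higher by 5.74 ± 0.60, or 4.41 when dim arrays are set to the floor (adjusted p = 1.71e-07). The lectin Cd209f, related to DC-SIGN, ran from -0.44 over 1.21 to 1.66 in WT and from -6.70 over -5.85 to -5.22 in KO, where it was well above background on 2 of 6 arrays (-6.96 ± 0.35, or -6.67 when dim arrays are set to the floor, adjusted p = 6.63e-13), and normexp background correction with an offset of 50 gave -4.08. Wdr72 was not well above background on any KO array and was at least 39.4-fold lower, and likewise Pcolce2, an enhancer of procollagen processing, at least 29.6-fold, Tmc5 at least 21.5-fold and Kcnj16, a potassium channel subunit, at least 17.0-fold.

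Ren2 bears on the mixed strain of the mice. It is an additional renin gene carried by the sv129 strain and absent from the C57 strain. Its probe ran from 1.94 over 2.76 to 3.92 in WT and from -4.17 over -3.91 to -3.48 in KO, with no overlap (-6.75 ± 0.35, 108-fold, adjusted p = 7.35e-13). The genotype of the animals at other strain-specific loci is not stated in the sources used here, and the part of strain background in any difference was not tested. Genes near the deleted loci, where targeted alleles carry flanking strain sequence, were examined by position in the mm9 coordinates of the array files. Within 5 Mb of Nr1h3 12 of 97 tested genes were called (12.4%), 2 higher and 10 lower. Within 5 Mb of Nr1h2 28 of 186 were called (15.1%), 8 higher and 20 lower. Of all genes 15.2% were called, 7.20% higher and 8.00% lower. In stretches of 10 Mb with at least 20 tested genes the called ran from 0 of 20 to 8 of 22 (36.4%). The stretch of chromosome 1 from position 170000001 held 42 called of 126 (33.3%), 8 of them by at least 4-fold (6.35%, against 1.39% of all genes). Near Nr1h3 the muscarinic receptor Chrm4 was lower by 2.14 ± 0.16 (adjusted p = 4.63e-10). It was well above background on 2 of 6 KO arrays, and the difference was -1.86 with dim arrays raised to the floor and -0.56 with normexp background correction. Ptprj, a receptor phosphatase, was lower by 0.52 ± 0.09 (adjusted p = 0.000233). Near Nr1h2 the kallikrein Klk1b4 was lower by 1.47 ± 0.18 (adjusted p = 1.89e-06) and its paralogue Klk1b27 higher by 1.29 ± 0.19 (adjusted p = 2.12e-05). Kallikreins of this cluster are close paralogues, so cross-hybridisation between them was possible.

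The LXR response element is a direct repeat of AGGTCA with a spacer of 4 bases, searched here with up to 2 mismatches on both strands of the 250 bases before the start. It stood in 2.48% of promoters of genes called lower, 2.69% of those called higher and 2.47% of all tested genes. Known elements lie in part outside this window, so the shares describe only these letters. The matches of the lipogenic acyltransferase Gpam, at chr19:55099668-55099683, and of the Kupffer cell marker Folr2, at chr7:101845503-101845518, are shown, each on the strand of the gene with its repeats in capitals (GRCm38.p6, minus strand), since these genes belong to the lists with the most lower members.
Gpam: AGGCTAgctgAGGTCA
Folr2: TGTCCTcgtcTGACCA
Gpam was lower by 0.90 ± 0.21 (adjusted p = 0.00462), and its values ran from 4.96 over 5.28 to 6.52 in WT and from 4.19 over 4.64 to 4.86 in KO, without overlap.

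The genotype differences were then set beside those of the other 12 mice, which received FB1. Of the 3354 genes called without FB1, 2126 were called in the same direction with FB1 (63.4% of them, and 29.3% of the 7244 genes called with FB1, which were 32.8% of all genes), 63 in the opposite direction, and 1165 were not called. Genes lower in KO without FB1 were called again for 1227 of 1765, and higher genes for 899 of 1589, where 18.3% and 14.6% of all genes were called in those directions with FB1. The difference between the genotype effects was itself called for 2051 genes (9.29%; 4.45% above 0 and 4.84% below 0), of which 530 were among the 3354.

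Among the genes described here, Cd5l (-9.46 ± 0.28 with FB1) and Nr5a2 (-1.55 ± 0.07) were called in the same direction with FB1, and the difference of effects was not called for them. Cyp2b13 was well above background on 0 of the 6 WT arrays with FB1, so its effect there has no measured WT level. Its KO arrays with FB1 ran from 3.88 over 5.18 to 5.37, below all 6 KO controls. Cyp2b9, Cyp2b10 and Cd163 were called in the same direction too, at 8.06 ± 0.43, 6.49 ± 0.35 and -5.80 ± 0.30 with FB1 (adjusted p of the difference 0.0157, 0.00346 and 0.00459). Lpl, lower in KO without FB1, was at 0.25 ± 0.27 with FB1 (difference of effects 1.90, adjusted p = 0.0039). Abcg5 and Abcg8, not called without FB1, were lower in KO with FB1, by 1.12 ± 0.19 and 1.18 ± 0.26 (differences of effects -1.17 and -1.33, adjusted p = 0.0101 and 0.0226). C6, lower without FB1, was at 0.46 ± 0.27 with it (difference 2.73, adjusted p = 0.000314). Among the genes called without FB1 whose genotype effect differed with the smallest p were Tuba8, a tubulin (-1.39 ± 0.16 without and 0.88 ± 0.16 with FB1), Nupr1, a stress-induced nuclear protein (-1.60 ± 0.15 and 0.11 ± 0.15) and the elastase Cela1 (1.78 ± 0.17 and -0.06 ± 0.17).

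**Figure D5:**
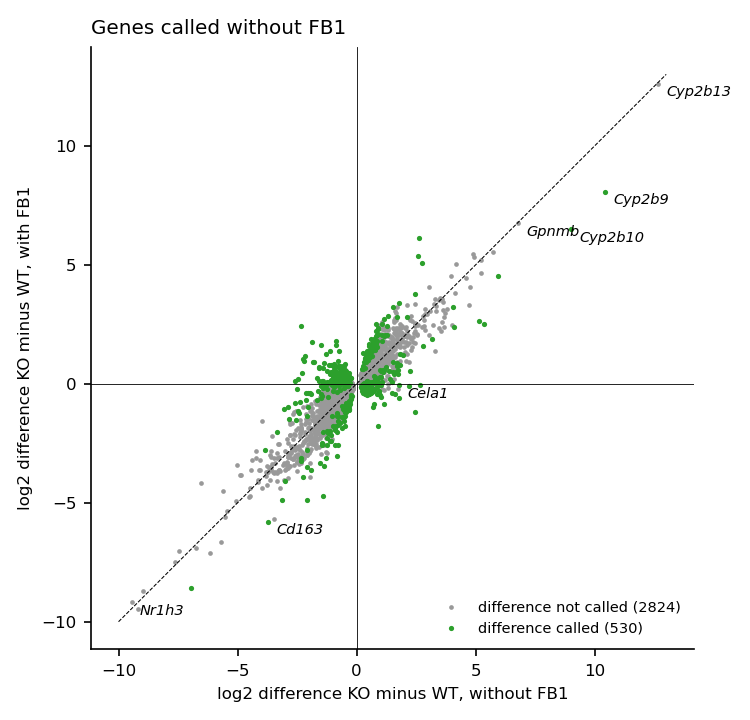
Log2 difference KO minus WT with FB1 (vertical axis) against that without FB1 (horizontal axis) for the 3354 genes called without FB1; the dashed line marks equal effects. The 530 green points are genes whose effects differed by the test of the difference, among them Cyp2b9, Cyp2b10 and Cd163, and the 2824 grey points are the rest, which include Cyp2b13 and Gpnmb, whose WT values lay mostly below background.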

How the data were processed

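Liver RNA of 24 mice was hybridised to 1-colour Agilent arrays, with a separate array for every mouse. The deposited intensity values are background-subtracted signals of Agilent Feature Extraction 10.10.1.1, per the file headers, which give mm9 coordinates. The authors also deposited log2 values of 33417 probes. Their normalization is not stated in the sources used here, and they served as an alternative.

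Signals were scaled by subtracting, on the log2 scale, the 75th percentile of the array. Outlier spots were dropped and repeated spots averaged. Testing required detection above background throughout 1 or more groups, with a minimum of 4 values in each group (33417 of 56605 probes). For genes with several tested probes the brightest was used. Of 1070 called genes with more than 1 tested probe, all probes had the direction of the call in 806. With the mean of a gene's probes, 46 of the 3354 called genes changed sign. RefSeq (GRCm38.p6) gave the names of 59.9% of probes, and the others kept the name in the array files. Group means over all 24 arrays were estimated by limma (version 3.58.1, R 4.3.3) with Benjamini-Hochberg adjustment, tested first on simulated data. "At least" folds use the detection floor for a group with 0 arrays above background. No p-value is given beside them, because the fit used values below background for that group. Such genes could pass the filter through the bright group alone. Named genes were the 10 greatest non-overlapping rises and falls, members of 4 lipid and bile acid lists, leading calls of the other lists and of the loci near the deleted genes, and genes whose effect differed with FB1; exceptions are marked. Values of 3 list members are not reported here. Members and lists were chosen with earlier results of these data known.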

Additional observations from a re-analysis of the deposited data

Results flagged for a closer look

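In 17 of 270 groups of 6 mice examined, for the 135 genes named, the highest or lowest array lay apart from the others by more than Dixon's 95% critical value of 0.625. That value allows about 1 in 20 for independent groups, and genes read on the same arrays are not independent. For KO control replicate 1 the values were 7.75 for Dgat2 (nearest array 7.56). For KO control replicate 3 the values were -1.93 for Ccr2 (nearest array -2.43), -0.35 for Cyp7a1 (nearest array 2.11), 4.45 for Lpcat3 (nearest array 4.71). For WT control replicate 1 the values were 6.11 for Scd1 (nearest array 6.97). For WT control replicate 4 the values were 3.22 for Cfp (nearest array 4.08), 4.0 for Clec4f (nearest array 4.66), 0.91 for Dgat1 (nearest array 0.67), 1.71 for Hmox1 (nearest array 3.62), -3.59 for Ms4a7 (nearest array -2.85), -1.64 for Soat1 (nearest array -0.75). For WT control replicate 6 the values were -6.44 for Ccl3 (nearest array -7.63), 5.04 for Cyp3a25 (nearest array 5.55), 7.45 for Fabp5 (nearest array 5.69), -3.22 for Kcnj16 (nearest array -1.58), 1.77 for Pltp (nearest array 0.99), 1.02 for Tmc5 (nearest array -1.46). WT control replicates 4 and 6 held 6 such values each.

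For 36 of the 135 genes the genotype effect with FB1 differed from that without it by the limma test of the difference. Differences of effects are KO minus WT with FB1 less KO minus WT without it, on the log2 scale. The differences above 0 were in Abcc4 (1.22), Abcg1 (1.05), Asns (2.26), C1qa (0.83), C6 (2.73), Cd14 (1.38) and Cd68 (0.87). They also included Ctss (1.45), Cygb (0.76), Cyp2c55 (1.80), G6pdx (0.96), Irf7 (1.44), Klk1b27 (1.15) and Lpl (1.90). They also included Ms4a7 (1.13), Nupr1 (1.71), Oas2 (1.21), Soat1 (0.88), Timp1 (0.50) and Tuba8 (2.26). The differences below 0 were in Abcg5 (-1.17), Abcg8 (-1.33), Ccl24 (-1.76), Cd163 (-2.08), Cd209f (-1.63), Cela1 (-1.84) and Cyp2a4 (-1.01). They also included Cyp2b10 (-2.50), Cyp2b9 (-2.38), Cyp3a44 (-2.79), Dgat2 (-0.54), Gstt3 (-1.21), Klb (-0.78) and Meg3 (-2.51). They also included Mlxipl (-0.58) and Thrsp (-1.68). Adjusted p-values ran from 5.84e-06 to 0.0473.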

How the results depend on the processing

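Of 123 genes named in the text and called, 103 kept their call and direction in every alternative run that tested them, and 20 lost the call in at least 1. Some of the 103 were not tested in every run, among them Gpnmb, Cyp2b13, Cd209f and Chrm4. The stricter thresholds were applied to counts and not to single genes. Counts of called genes ran from 2824 (no filter on dim probes) to 3583 (array weights) over the alternatives with all 12 control arrays and the same threshold, and from 2821 to 3322 when each control array was left out in turn (1310 to 1585 higher, 1506 to 1767 lower). At an adjusted p under 0.01, 1912 genes were called, 827 higher and 1085 lower, and with at least 1.5-fold 1825, 790 higher and 1035 lower. The cholesterol genes called higher numbered 7 with quantile normalisation or with the mean of a gene's probes, 1 without the filter on dim probes, 2 with the 12 control arrays alone, 0 without WT control replicates 4 and 5, 0 at an adjusted p under 0.01, and 0 to 9 on leaving out single arrays. The bile acid genes called lower numbered 3 without the filter, 3 without WT control replicates 4 and 5, 3 with at least 1.5-fold, 3 at an adjusted p under 0.01, and 3 to 6 on leaving out single arrays. Phase 1 genes called lower numbered 5 with at least 1.5-fold, phase 1 genes called higher 4 at an adjusted p under 0.01, and LXR targets called lower 5 at that threshold. The called differences between genotype effects numbered 1257 without the filter, and 1622 to 2525 on leaving out single arrays, with the lowest count without KO control replicate 2. The Nr1h3 difference was -9.84 on slide 3 alone. The cause of these shifts was not tested, apart from the thresholds, which call fewer genes by construction. Leaving out WT control replicates 4 and 5 together was chosen after seeing the data.

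The replicate block gave 3181 calls. Same-numbered arrays correlated at -0.063 to 0.061 in their deviations from the group means, and 0 arrays correlated best with their own number, so the arrays share only a number. In normal data simulated with the spread of each gene, 50 of 100 changes of 0.5 on the log2 scale were called in the right direction. Of changes of 1, 90 of 100 were called so, with 9 false calls in all. A gene that was not called may therefore still differ. Probes near background give no measured level.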
